A study of Mus musculus with 28 samples.

Results

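The genes examined here encode the subunits of the PAF1 complex: Paf1, Cdc73, Ctr9, Leo1, Rtf1 and Wdr61. They were chosen by name, and all 6 were found among the 24984 genes listed in each of 3 Bru-seq tables. Bru-seq measures nascent RNA: cells take up 5-bromouridine (BrU) for minutes, and the RNA that carries it is captured with an antibody and sequenced. The cells were murine embryonic stem cells (mESCs), WT or EloA null, which the labels call CCE28 in the growth protocol and CJ7 in the treatment protocol. Both genotypes were grown on feeder fibroblasts with LIF, serum and the inhibitors PD0325901 and CHIR99021, and were depleted of feeders before labelling. In steady state, cells received 2 mM BrU for 10 min. In the 2 recovery conditions, cells were first held for 60 min in 1 µM flavopiridol (FP), an inhibitor of P-TEFb, the kinase that lets paused Pol II enter productive elongation, and BrU was then present for the 5 or 10 min after the drug was washed out. Each genotype had 2 libraries in each condition, 12 in all. For 1 library, the first titled EloA null in steady state, the genotype label reads wild type; its title decided the group. The paper describes its Bru-seq duplicates as independent experiments, while the labels do not say which cultures they came from. Every p-value rests on the spread between such duplicate libraries only, with the spread of each gene drawn towards the trend over all genes. The other 16 samples of the series were not analysed here.

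The PAF1 complex travels with Pol II along the gene body. Paf1, Ctr9, Cdc73 and Leo1 form its core together with Wdr61, and Rtf1 is the subunit that stimulates ubiquitylation of histone H2B by Rnf20 and Rnf40, a mark that precedes methylation of histone H3. Ctr9 is the scaffold on which other subunits assemble, Cdc73 is the tumour suppressor also called parafibromin, and Wdr61 is shared with the Ski complex, which feeds RNA to the exosome. Elongin A, the protein lost in the mutant cells, is another factor that stimulates Pol II elongation in vitro. The study used recovery from FP to ask how far Pol II travels with and without Elongin A.

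The 6 genes differ widely in length, and their recovery levels are presented below from the shortest gene to the longest. On GRCm38, the assembly behind mm10, Paf1 is the shortest at 6388 bases (chr7:28392996-28399383, plus strand, 14 exons). Wdr61 spans 17397 bases (chr9:54717153-54734549, minus strand), Leo1 25418 bases (chr9:75441015-75466432, plus strand) and Ctr9 27427 bases (chr7:111028951-111056377, plus strand, 25 exons). Rtf1 spans 60340 bases (chr2:119675068-119735407, plus strand) and Cdc73 99618 bases (chr1:143603276-143702893, minus strand, 17 exons). The deposited RPKM values proved to be divided by intron length, counted as intronic bases and the exon base that flanks an intron at either end. With that length, every value of the 6 genes stood for a whole number of reads, within 0.001 of a read. It was 4461 bases for Paf1 and 92540 bases for Cdc73. This identifies the divisor and not where the counted reads lie, and the paper describes counting over whole genes. Reads per library ran from 169 to 789 for Paf1, 130 to 1020 for Ctr9, 187 to 2050 for Leo1, 825 to 3767 for Rtf1, 765 to 6665 for Wdr61 and 1761 to 11244 for Cdc73. Paf1 and Ctr9 therefore rest on the fewest reads and Cdc73 on the most.

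The 250 bases upstream of the annotated start are shown for the shortest gene, the longest gene and Rtf1, which was added after its genotype difference at 5 min was seen. These windows leave out the Pol II pause site, which the paper places downstream of the start. The sequences are from RefSeq (GRCm38.p6) and read 5′ to 3′ on the strand of the gene, and capitals mark matches to the letters named below. The windows are chr7:28392746-28392995 for Paf1, chr2:119674818-119675067 for Rtf1 and chr1:143702894-143703143, minus strand, for Cdc73.
Paf1: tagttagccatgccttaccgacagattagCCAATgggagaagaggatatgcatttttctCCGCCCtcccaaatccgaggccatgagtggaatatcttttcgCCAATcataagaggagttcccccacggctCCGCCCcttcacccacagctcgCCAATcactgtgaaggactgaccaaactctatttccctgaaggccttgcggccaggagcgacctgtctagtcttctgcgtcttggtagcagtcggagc
Rtf1: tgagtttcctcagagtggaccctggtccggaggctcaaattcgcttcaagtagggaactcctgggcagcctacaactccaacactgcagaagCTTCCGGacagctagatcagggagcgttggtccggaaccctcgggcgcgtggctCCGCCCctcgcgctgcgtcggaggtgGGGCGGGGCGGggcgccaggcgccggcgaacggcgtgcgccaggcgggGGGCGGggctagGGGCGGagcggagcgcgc
Cdc73: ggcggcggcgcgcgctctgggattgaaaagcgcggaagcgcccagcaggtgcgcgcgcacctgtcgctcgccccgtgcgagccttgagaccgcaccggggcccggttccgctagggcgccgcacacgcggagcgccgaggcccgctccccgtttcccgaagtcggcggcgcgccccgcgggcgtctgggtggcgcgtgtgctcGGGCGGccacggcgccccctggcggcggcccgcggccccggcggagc

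Of the 6 genes, 4 had an entry in the promoter table; Ctr9 and Wdr61 are named only. The Paf1 window held 3 copies of the CCAAT box (CCAAT), the nearest 94 bases before the start, and 2 GC boxes (GGGCGG, on the opposite strand). The Rtf1 window held 5 GC boxes, a pair of which share 1 base, and 1 ETS core (CCGGAAG). The Cdc73 window held 1 GC box and was the richest in G and C, at 80.4% with 47 CG steps, against 70.4% and 28 for Rtf1 and 53.6% and 11 for Paf1. Both strands were searched, and over all 32851 promoter windows of this length 33.8% held CCAAT, 32.7% GGGCGG and 6.91% CCGGAAG, with a median of 52.4% G and C. The E-box (CACGTG) occurred in 6.02% of all windows and in none of those printed. The same held for the TATA box (TATAAA), present in 12.4% of all windows. The Leo1 entry of the table starts inside the span of the gene and held 2 GC boxes. A match describes these letters and shows no binding.

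In WT cells at steady state, the RPKM of the 6 genes lay within a 2.86-fold range. Cdc73 was at 3.64 and 4.35 in the 2 libraries and Wdr61 at 4.15 and 3.80, so that neither of these could be placed above the other. Rtf1 followed at 2.42 and 2.25, then Leo1 at 1.73 and 1.79. Paf1 at 1.59 and 1.42 and Ctr9 at 1.46 and 1.34 overlapped at the bottom of the order. Against the 10796 genes with a mean RPKM above 0.5 in this group, Cdc73 and Wdr61 stood above 79.6% and 79.5% of genes, and Ctr9 above 35.7%. The libraries labelled EloA null had a like range of 2.86-fold: Wdr61 (4.31 and 3.44) and Cdc73 (3.60 and 3.20) overlapped at the top, and Ctr9 (1.34 and 1.37) was lowest. There Paf1 (1.90 and 1.92) overlapped with Leo1 (1.68 and 2.01), and Rtf1 (2.15 and 2.14) stood above both.

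The order changed in recovery, and the range of levels widened. At 5 min it was 8.42-fold in WT and 11.7-fold in EloA null libraries, and at 10 min 7.5-fold and 9.0-fold. Paf1 and Wdr61 overlapped as the highest members at 5 min in both genotypes, and Ctr9 was lowest. At 10 min Wdr61 stood alone at the top with 15.0 and 12.2 RPKM in WT and 14.7 and 14.4 in EloA null libraries. Its mean was above that of 92.1% of the WT genes with RPKM over 0.5. Cdc73 overlapped with Rtf1 at 10 min in both genotypes.

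**Figure D1:**
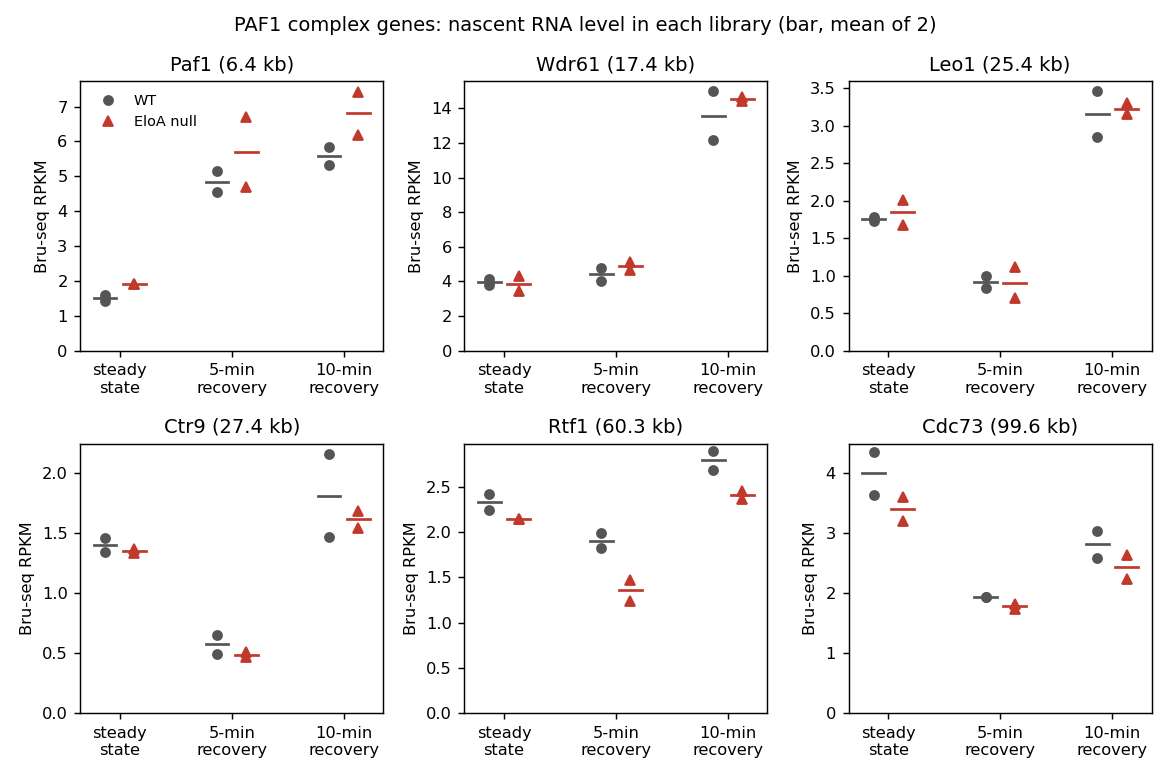
Bru-seq RPKM (y axis, from 0) of each PAF1 complex gene in the 12 libraries, by condition (x axis) and genotype, with genes ordered by annotated length; each point is 1 library and each bar the mean of 2. Paf1 is above its steady-state level at 5 and 10 min, Wdr61 reaches 15.0 RPKM at 10 min, Leo1 and Ctr9 are lowest at 5 min, and the means of Cdc73 are below steady state in both recovery conditions.

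Recovery levels were read against the mean steady-state RPKM of the same genotype. Each RPKM is relative to the total of its own library, and BrU was present for 5 min in the 5-min condition but for 10 min in steady state. A ratio therefore does not by itself measure absolute output. The paper describes Drosophila spike-in RNA added to each sample, and whether the deposited values make use of it is not given in the sources used here. How the 3 tables were scaled to each other is not given in the sources used here, so these ratios are a description with no test, and they are set beside the median of all genes expressed in steady state. In WT that median was 0.622 (−0.68 on the log2 scale, 11327 genes) at 5 min and 1.01 at 10 min. In EloA null libraries it was 0.561 (−0.83) and 1.02 over 11328 genes.

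Paf1, the shortest member, was already high at 5 min. Its WT level was 5.14 and 4.55 RPKM, 3.42 and 3.03 times steady state (mean 3.22 ± 0.28, SD, n = 2), which is 5.18 times the median of all genes. Both libraries labelled EloA null were also above all steady-state libraries, at 4.70 and 6.71 RPKM or 2.47 and 3.52 times steady state. The further step to 10 min was small: 5.85 and 5.32 RPKM in WT and 7.43 and 6.20 in EloA null libraries, 1.15 and 1.19 times the 5-min means. Among genes under 10 kb, Paf1 stood above 96.5% in WT for the ratio at 5 min and above 96.9% for the ratio at 10 min.

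Wdr61 had its larger step after 5 min. At 5 min it was at 4.79 and 4.05 RPKM in WT, 1.11 ± 0.13 times steady state (SD, n = 2), and at 5.13 and 4.69 in EloA null libraries, 1.27 ± 0.08 times. These 5-min ratios were 1.79 and 2.26 times the median of all genes, and with each library centred on its median they became 1.45 and 1.76. At 10 min the WT ratios were 3.77 and 3.06 and the EloA null ratios 3.78 and 3.72. In both genotypes these ratios overlapped with those of Paf1 at 10 min. Within genes of 10-20 kb, Wdr61 stood above 92.4% in WT and 93.8% in EloA null libraries at 10 min.

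Leo1 and Ctr9, of almost equal length, were below steady state at 5 min and above it at 10 min, except that the 10-min ratio of Ctr9 in EloA null libraries, 1.19, became 0.93 with each library centred on its median. Leo1 was at 0.834 and 1.00 RPKM in WT at 5 min and at 3.46 and 2.86 at 10 min, 0.522 ± 0.067 and 1.80 ± 0.24 times steady state (SD, n = 2). In EloA null libraries it was at 0.705 and 1.12 at 5 min and at 3.30 and 3.16 at 10 min. Ctr9 was at 0.657 and 0.494 RPKM in WT and 0.471 and 0.507 in EloA null libraries at 5 min, on 130 to 203 reads a library. It was at 2.16 and 1.47 RPKM in WT at 10 min and 1.69 and 1.54 in EloA null libraries, and its WT ratio of 1.30 ± 0.35 had the largest spread relative to its size among the WT 10-min ratios. Between 5 and 10 min these 2 genes and Wdr61 had the largest steps of the complex, 3.44-fold for Leo1, 3.15-fold for Ctr9 and 3.07-fold for Wdr61 in WT. Both stood near the middle of genes of 20-30 kb at 5 min, above 52.8% and 39.6% of them in WT.

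Rtf1 was within 1.5-fold of its steady-state level at both times in WT. WT libraries held 1.98 and 1.82 RPKM at 5 min and 2.89 and 2.69 at 10 min, 0.816 and 1.20 times steady state. Libraries labelled EloA null held 1.24 and 1.47 at 5 min, 0.632 times, and 2.45 and 2.37 at 10 min, 1.12 times. Relative to all genes, the 5-min ratio was 1.31 times the median in WT and 1.13 times in EloA null libraries. The side of 1 on which Rtf1 falls thus depends on the scaling and on the genes used for it. With each library centred on its median, the WT ratios became 1.07 at 5 min and 0.968 at 10 min. The EloA null ratios became 0.877 at 5 min, still below 1, and 0.876 at 10 min. Among genes of 60-100 kb, Rtf1 stood above 93.7% in WT and 91.5% in EloA null libraries at 10 min. At 60.34 kb, however, Rtf1 lies at the lower edge of that class. For genes of 30-60 kb the 10-min quartiles were 0.550 and 1.26 in WT and 0.527 and 1.24 in EloA null libraries. The Rtf1 ratios of 1.20 and 1.12 lie between them.

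Cdc73, the longest member, was below steady state throughout recovery. WT libraries gave 1.93 and 1.93 RPKM at 5 min and 2.58 and 3.04 at 10 min, 0.484 and 0.704 times steady state. Libraries labelled EloA null gave 1.83 and 1.74 at 5 min and 2.23 and 2.63 at 10 min, 0.523 and 0.714 times. The 10-min ratio was 0.697 times the median of all genes in WT and 0.703 times in EloA null libraries. Cdc73 lies at the upper edge of its length class: the WT medians at 5 and 10 min were 0.558 and 0.582 for genes of 60-100 kb and 1.15 and 0.656 for genes over 100 kb.

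A second listed gene overlaps one stretch of Cdc73. B3galt2, a galactosyltransferase gene, lies inside Cdc73 on the opposite strand (chr1:143640697-143649937), between 53.0 and 62.2 kb downstream of the Cdc73 start. It was looked at after its values were seen. In steady state it was listed at 3.08 and 3.56 RPKM in WT and 3.07 and 2.53 in EloA null libraries, 0.831 and 0.822 times the level of Cdc73. It was at 1.57 and 1.24 in WT at 5 min and at 0.182 and 0.155 at 10 min, which is 0.0509 times its steady state, while Cdc73 as a whole was at 0.704 times. In EloA null libraries it was at 1.26 and 0.757 and then at 0.0966 and 0.0451. The libraries were directional and the authors separated reads by strand, but whether the counting per gene used strand is not given in the sources used here. Without it, reads of the 2 genes cannot be told apart. Paf1 has close neighbours but no overlap: Med29 and Samd4b, both on the other strand, lie 305 and 138 bases away. Leo1 holds an annotated snRNA on the other strand, and no gene overlaps Wdr61, Ctr9 or Rtf1.

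**Figure D2:**
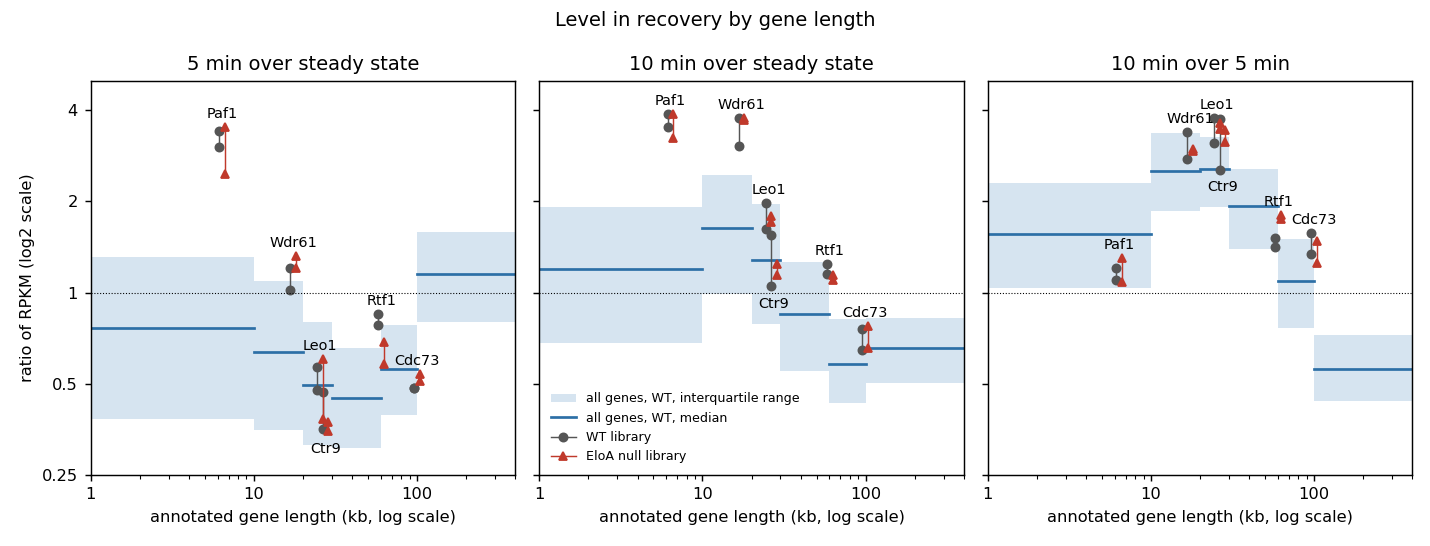
Ratio of RPKM in recovery to steady state, and of 10 to 5 min (y axis, log2 scale), against annotated gene length (x axis, log scale) for each library of the 6 genes; the blue lines and bands are the median and interquartile range of all WT genes expressed in steady state in each length class, with the outer classes drawn from 1 kb and to 400 kb. Paf1 is above the band at 5 and 10 min, Wdr61 and Rtf1 are above it at 10 min, and the largest steps from 5 to 10 min are those of Wdr61, Leo1 and Ctr9.

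Counted at a 1.5-fold limit, 1 member was higher than in steady state at 5 min in WT (Paf1) and 3 were lower (Leo1, Ctr9 and Cdc73), where 13.5% of all genes were higher and 53.4% lower. At 10 min 3 were higher (Paf1, Wdr61 and Leo1) and 0 lower, where 31.1% of all genes were higher and 29.5% lower. From 5 to 10 min 3 were higher and 0 lower, against 59% and 14.3% of all genes. In EloA null libraries 1 member was higher and 4 were lower at 5 min, Rtf1 being the addition, against 12.9% and 57.5% of genes. At 10 min 3 were higher and 0 lower, against 32.2% and 29.9%. From 5 to 10 min 4 were higher and 0 lower, against 65.3% and 13% of genes. These counts depend on the scaling. With each library centred on its median, WT had 1 member higher and 2 lower at 5 min and 2 higher and 1 lower at 10 min, and EloA null libraries had 2 higher and 1 lower at both times. Counts of 6 genes are too small to place the complex apart from the shares of all genes. The members' median ratio was 0.669 at 5 min and 1.55 at 10 min in WT, and 0.578 and 1.47 in EloA null libraries.

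The comparison of genotypes was made within each table, with limma on log2(RPKM + 0.1) over all genes with a mean RPKM above 0.5 in either genotype. All 6 members passed that filter in every table. Ctr9 did so at 5 min through WT alone, at 0.575 RPKM against 0.489 in EloA null libraries. The targeted gene was looked at first. Eloa was higher in every library labelled EloA null than in every WT library of the same table: 1.18 and 1.16 RPKM in WT against 1.96 and 1.89 in steady state, 2.96 and 2.82 against 5.14 and 6.25 at 5 min, and 4.65 and 6.51 against 8.74 and 8.93 at 10 min. Its log2 difference was 0.67 ± 0.08 (SE, adjusted p = 0.0999), 0.95 ± 0.18 (adjusted p = 0.249) and 0.67 ± 0.18 (adjusted p = 0.176). What the null allele lacks is not given in the sources used here, so this RNA level does not check the genotype. The paper examined Elongin A protein in WT and null cells by immunoblot. It also reports an Elongin A chromatin signal in null cells close to the background of a control antibody at a ribosomal RNA gene. The steady-state library whose genotype label reads wild type had 1.96 RPKM of Eloa, above both WT libraries and beside the other library titled EloA null.

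In steady state no member passed an adjusted p of 0.05, as did 0% of the 11347 genes tested, of which 2083 had an unadjusted p under 0.05. Paf1 was the member with the largest difference. Its EloA null libraries at 1.90 and 1.92 RPKM lay above both WT libraries at 1.59 and 1.42, a log2 difference of 0.33 ± 0.09 (SE, unadjusted p = 0.0179, adjusted p = 0.185). Cdc73 and Rtf1 lay the other way without overlap, with log2 differences of −0.22 ± 0.13 (adjusted p = 0.415) and −0.11 ± 0.08 (adjusted p = 0.493). Libraries did not overlap between genotypes for 32% of all genes with EloA null higher and 21.4% with EloA null lower, so 1 and 2 of 6 members is close to the level of all genes. Wdr61, Leo1 and Ctr9 overlapped between genotypes, with log2 differences between −0.04 and 0.06. No member was past 1.5-fold, against 9.31% of all genes. The members' median log2 ratio was −0.04, beside 0.04 over all genes tested.

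At 5 min of recovery no member passed, again as for 0% of the 8985 genes tested, 846 of which had an unadjusted p under 0.05. Rtf1 had the largest difference: 1.98 and 1.82 RPKM in WT against 1.24 and 1.47 in the libraries labelled EloA null, with no overlap. The log2 difference was −0.46 ± 0.16 (SE, unadjusted p = 0.0303, adjusted p = 0.5), a ratio of 0.712 in the means. When all 12 libraries shared 1 estimate of the spread, the adjusted p of Rtf1 was 0.0363, and it was the only member to pass in any fit; that fit called 532 of the genes tested. Cdc73 was also lower without overlap, at −0.11 ± 0.14. Non-overlap with EloA null lower was seen for 25% of all genes and with EloA null higher for 15.4%, and the members gave 2 and 0. Paf1, Wdr61, Leo1 and Ctr9 overlapped. No member was past 1.5-fold, against 12.1% of all genes, and leaving out the second EloA null library put Rtf1 past it. The members' median log2 ratio was −0.06, the same as that of all genes to 2 decimals.

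At 10 min no member passed, with 0% of 10241 genes called and 2098 at an unadjusted p under 0.05. Paf1 was again higher in both libraries labelled EloA null, at 7.43 and 6.20 against 5.85 and 5.32 RPKM, a log2 difference of 0.28 ± 0.13 (SE, adjusted p = 0.307). Rtf1 was again lower in both, at 2.45 and 2.37 against 2.89 and 2.69, a difference of −0.20 ± 0.10 (adjusted p = 0.316). Cdc73 had the same estimate, −0.20 ± 0.14 (adjusted p = 0.449), but its libraries overlapped. These 2 members without overlap, 1 in each direction, compare with 33.5% of all genes where EloA null was higher and 21.8% where it was lower. Wdr61, the highest member, was at 15.0 and 12.2 against 14.7 and 14.4, a difference of 0.10 ± 0.13. No member was past 1.5-fold, against 12.4% of genes. The members' median log2 ratio was −0.07, beside 0.06 over all genes.

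Across the 3 tables Rtf1 was the 1 member whose libraries did not overlap between genotypes in any of them, always with EloA null lower. Of the 8217 genes tested in all 3 tables, 10.1% were lower in this way in each of them and 8.79% higher. Paf1 had a positive and Cdc73, Ctr9 and Rtf1 a negative estimate in each table, and Wdr61 and Leo1 changed sign between tables. Of these, the estimate of Paf1 at 5 min turned to −0.0391 without the second EloA null library, and those of Ctr9 turned to 0.0132 in steady state and 0.13 at 10 min without the first WT library. Whether the genotype difference itself changed between conditions was tested over all 12 libraries. Against steady state, 0.0608% of 8217 genes passed at 5 min (5 genes) and 0% at 10 min, where 440 and 103 had an unadjusted p under 0.05, and none of the 6 members passed. Rtf1 had the largest change at 5 min, −0.35 ± 0.14 on the log2 scale (SE, adjusted p = 0.869). At 10 min the members' changes lay between −0.09 and 0.15. The spread of these duplicates leaves room for moderate differences: the standard error of a member's genotype difference was between 0.08 and 0.25 on the log2 scale.

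**Figure D3:**
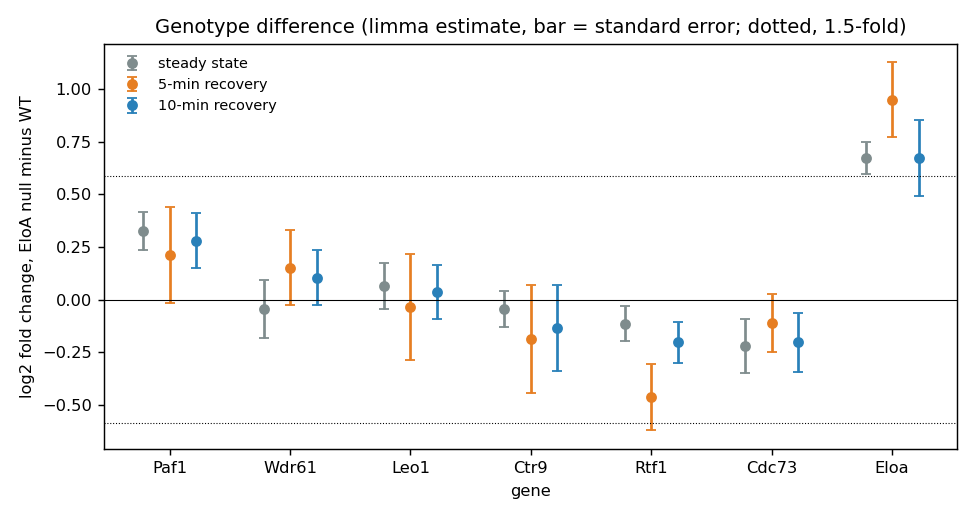
Log2 fold change of EloA null minus WT (y axis) for the 6 genes and Eloa (x axis) in steady state and at 5 and 10 min of recovery; points are limma estimates, bars standard errors, and dotted lines 1.5-fold. Paf1 is above 0 and Rtf1 below 0 in all 3 conditions, no member passes 1.5-fold, and Eloa does so in each.

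Replicates of the members differed by more than the counting of reads alone. Of 36 pairs of replicates (6 genes in 6 groups), 20 differed by over 2 standard errors of their read counts. The coefficient of variation had a median of 7.24% and ran up to 31.9% for Leo1 in EloA null libraries at 5 min, on 191 and 438 reads, with 27.1% for Ctr9 in WT at 10 min and 24.9% for Paf1 in EloA null libraries at 5 min. The counting error of a single library was between 0.943% and 8.77%.

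Genes that act with the PAF1 complex were read from the same fits in 4 lists. None of the 29 genes on them passed an adjusted p of 0.05 in any table, where 0% of all genes did. The list on ubiquitylation of H2B and methylation of histones had 10 genes, all tested. Rnf20, the H2B ubiquitin ligase, was lower in the libraries labelled EloA null in steady state, at 2.78 and 2.77 RPKM in WT against 2.40 and 2.26 (log2 difference −0.24 ± 0.08, adjusted p = 0.233). At 5 min the genotypes overlapped, at 2.14 and 1.49 against 1.37 and 1.63 (−0.25 ± 0.22, adjusted p = 0.784). At 10 min it was at 5.92 and 5.43 against 4.31 and 4.84 (−0.31 ± 0.11, adjusted p = 0.237). Its partner Rnf40 had differences of 0.15 ± 0.09, −0.15 ± 0.18 and 0.06 ± 0.13 in the 3 tables, all smaller than 2 standard errors. One gene of this list, the H3K4 methyltransferase gene Setd1b, was past 1.5-fold at 10 min, at 1.85 and 1.54 against 3.11 and 2.18 (0.60 ± 0.20, adjusted p = 0.223). The list's median log2 ratio was −0.04, −0.18 and 0.05 in the 3 tables.

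The 13 elongation partners had medians of −0.06, −0.02 and 0.03. Supt5, a subunit of the pausing and elongation factor DSIF, differed by 0.16 ± 0.16, −0.16 ± 0.26 and 0.16 ± 0.13 in the 3 tables, and the histone chaperone gene Supt6 by −0.04 ± 0.09, −0.02 ± 0.19 and −0.02 ± 0.09. The remodeller gene Chd1 was lower in the libraries labelled EloA null without overlap in each table: 3.73 and 3.87 against 3.48 and 3.32 in steady state, 1.81 and 1.76 against 1.36 and 1.53 at 5 min, and 3.41 and 3.04 against 2.59 and 2.56 at 10 min, with an adjusted p of 0.219 at the lowest. Supt16, a subunit of the histone chaperone FACT that was named from the list after its values were seen, lay the other way without overlap in each table: 6.18 and 6.09 against 8.42 and 8.58, 5.74 and 6.59 against 7.85 and 10.6, and 10.7 and 11.8 against 14.7 and 16.8. Its log2 differences were 0.46 ± 0.08, 0.56 ± 0.22 and 0.48 ± 0.12, with an adjusted p of 0.12 at the lowest. The shares of all genes apart in each of the 3 tables, given above for Rtf1, apply to both. One gene, the kinase gene Cdk12, was past 1.5-fold at 5 min, at 1.30 and 1.24 against 0.807 and 0.833 (−0.58 ± 0.15, adjusted p = 0.403). In the fit of all 12 libraries Cdk12 (adjusted p = 0.0189) and Eloa (adjusted p = 0.0169) passed at 5 min. In the list of Elongin and its partner, 4 genes, Eloa was the 1 gene past 1.5-fold in each table, and the list's medians were 0.25, 0.09 and 0.34. Of the Ski complex, which shares Wdr61, Ttc37 differed by −0.08 ± 0.10, −0.06 ± 0.17 and −0.13 ± 0.10. Skiv2l was at 0.645 and 0.572 against 0.477 and 0.799 in steady state, was under the filter at 5 min and differed by 0.32 ± 0.16 at 10 min (adjusted p = 0.336).

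**Figure D4:**
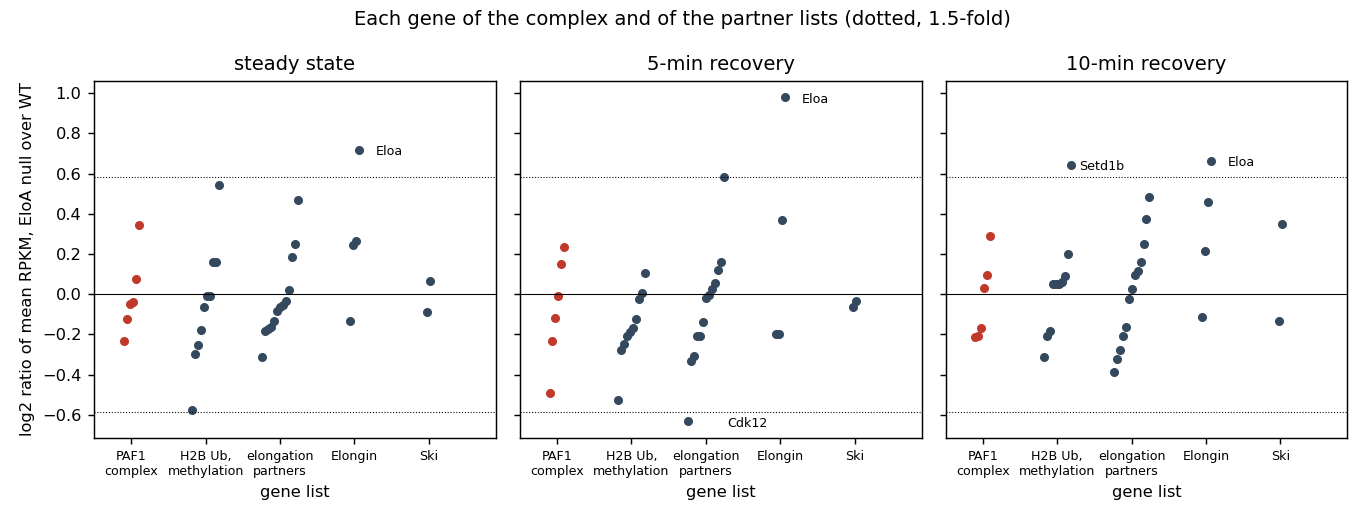
Log2 ratio of mean RPKM, EloA null over WT (y axis), for each PAF1 complex gene (red) and each gene of the 4 partner lists (x axis) in the 3 conditions, with dotted lines at 1.5-fold; each point is 1 gene. The genes past 1.5-fold are Eloa in each condition, Cdk12 at 5 min and Setd1b at 10 min.

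Likeness of pattern was measured as the root mean square difference of log2(RPKM + 0.1), each gene centred on its own mean, over the 12 libraries and 8216 other genes, as a description. The 2 genes nearest to Paf1 were Pak1ip1 (0.12) and Edc4 (0.12), of 12.024 and 12.353 kb. For Wdr61 they were Ndufa8 (0.10) and Slu7 (0.11), of 13.015 and 14.257 kb. For Leo1 they were Rac1 (0.09) and Ndfip1 (0.09), of 22.551 and 46.291 kb. For Ctr9 they were 2700097O09Rik (0.06) and Cpsf3 (0.07), of 34.574 and 28.784 kb. Rtf1 was most like Fbxo3 (0.08) and Tfcp2l1 (0.08), of 35.439 and 57.246 kb. Cdc73 was most like Phf20l1 (0.07) and Arih1 (0.08), of 69.544 and 99.633 kb. These lengths were not always near that of the member, which was 6.388 kb for Paf1, 25.418 kb for Leo1 and 60.34 kb for Rtf1. No member was among the nearest genes of another. Leo1 and Ctr9 were the most alike pair within the complex at 0.28, followed by Rtf1 and Cdc73 at 0.34, and Paf1 and Cdc73 were the least alike at 1.18.

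Facts of the libraries that bear on these values are few. Library sizes recovered from the RPKM steps are the totals by which reads were divided. They were 23138347 to 27954233 in steady state, 9857528 to 17272749 at 5 min and 18820716 to 28547358 at 10 min. Whether a normalization factor is part of these totals is not given in the sources used here. Reads of the 6 genes made up 0.0558% to 0.0667% of this total in steady state, 0.0369% to 0.0424% at 5 min and 0.0727% to 0.0798% at 10 min. All 8 stem cell markers, Pou5f1, Nanog and Sox2 among them, were over 0.5 RPKM in every library. Of 8 feeder fibroblast markers at most 2 were over 0.5 RPKM in a library, and their summed level was between 1.22 and 3.60 RPKM against 147 to 277 for the stem cell markers. Dcn, Lum and Thy1 were at 0 in 5, 7 and 3 libraries. Col1a1, Col1a2, Col3a1, Postn and Acta2 were above 0 in every library, with Col1a1 at 0.385 to 1.44 RPKM and Acta2 at 0.226 to 1.10. The summed fibroblast level was lower in the libraries labelled EloA null in each table, 1.31 to 1.5 against 1.54 to 1.90 in steady state, 1.22 to 1.52 against 1.99 to 2.34 at 5 min and 1.92 to 2.35 against 2.79 to 3.60 at 10 min. Its part in the results was not tested.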

How the data were processed

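The data are 12 Bru-seq libraries of mESCs, 2 per genotype and condition. The authors aligned paired-end reads to mm10 and dm3 with bowtie2, kept uniquely aligned reads, separated them by strand, counted reads per RefSeq gene with featureCounts 1.6.1 and normalized them with edgeR. They deposited RPKM values in 1 table per condition, with replicates separate and their means beside them. The RefSeq release, the use of strand in counting and the scaling between tables are not given in the sources used here. The mean columns were not used.

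Library sizes and reads were worked back from the steps between RPKM values: with intron lengths, about 99% of genes with introns gave whole reads (99.1% to 99.2% per library, within 0.05 of a read), against about 10% with the full span. Counting error was read from these reads, and no count test was run on RPKM. Gene lengths came from RefSeq on GRCm38, which held 24420 of the listed symbols, another 423 under an older name and 141 not at all.

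Genotypes were compared within each table with limma 3.58.1 in R 4.3.3 on log2(RPKM + 0.1), with an intensity trend, over genes with mean RPKM > 0.5 in either genotype, two-sided, with Benjamini-Hochberg adjustment; the fit was tested on simulated data. Fold changes understate those of low genes because of the pseudocount. The difference of genotype changes between conditions was fitted over all 12 libraries.

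The members, lists and tests were chosen with earlier results of these data known. Genes named are the members, Eloa, 7 listed partners in every table (Rnf20, Rnf40, Supt5, Supt6, Chd1, Skiv2l and Ttc37), any listed partner past adjusted p 0.05 or 1.5-fold in the main comparison, and the 2 genes most like each member; B3galt2 and other neighbouring genes were added, and Supt16 was named from its list, after their values were seen. Alternatives were another pseudocount (1 or 0.01), no filter or a filter at 2 RPKM, median centring, quantile normalization, the replicate number as a block, 1 fit of all libraries, robust variance estimates, and leaving out each library.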

Additional observations from a re-analysis of the deposited data

How the results depend on the processing

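With 2 libraries per group, the main comparison called 0 genes in each table, those past 1.5-fold included. A member that did not pass is therefore not shown to be unchanged. No member passed an adjusted p of 0.05 under any alternative, except 1 (Rtf1, adjusted p = 0.0363) at 5 min when all 12 libraries were fitted together; the same fit called Eloa at 5 min (0.95, adjusted p = 0.0169) and Cdk12. Over the other alternatives without leaving out a library, the direction of 5 of the members' differences turned, all for Leo1: −0.00262 in steady state with quantile normalization, 0.0305 and 0.0438 at 5 min, and −0.0596 and −0.0499 at 10 min, with centring and quantile normalization. Leaving out 1 library in turn, members past 1.5-fold were 0 to 1 at 5 min and 0 otherwise. The members' median log2 ratio was −0.0981 to 0.0208 in steady state, −0.185 to −0.0352 at 5 min and −0.0943 to 0.159 at 10 min, and −0.102 in steady state with centring. Single differences ran from −0.0999 to 0.0132 for Ctr9, −0.057 to 0.187 for Leo1 and −0.204 to 0.115 for Wdr61 in steady state, turning without the first WT library for Ctr9 and Wdr61 and without the second EloA null library for Leo1 and Wdr61. At 5 min they ran from −0.333 to 0.262 for Leo1, turning without the second WT or the first EloA null library, and from −0.0391 to 0.465 for Paf1, turning without the second EloA null library. At 10 min they ran from −0.399 to 0.13 for Ctr9, turning without the first WT library, and from −0.0974 to 0.171 for Leo1 and −0.0451 to 0.254 for Wdr61, both turning without the second WT library. The cause was not tested.

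Centring each library on its median moved the members' median recovery ratio to 0.877 at 5 min and 1.25 at 10 min in WT, and to 0.802 and 1.15 in EloA null libraries. Leaving out 1 library gave 0.659 to 0.681 and 1.39 to 1.76 in WT, and 0.558 to 0.644 and 1.39 to 1.56 in EloA null libraries.

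The labels tie same-numbered libraries of the 2 genotypes by nothing but the number. Their deviations from the group means had a weak positive correlation, 0.101, 0.119 and 0.103 over genes in the 3 tables, and with 2 pairs per table this does not settle whether they were paired. With the replicate number as a block, 0, 128 and 0 of all genes were called in steady state, at 5 min and at 10 min, against 0 in each without it, and 0 members passed in any table or in the test of the difference between conditions. Over all genes, fits of all 12 libraries called 132, 532 and 264 genes and robust variance estimates 81, 29 and 26.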
